A study of Homo sapiens with 27 samples.

Results

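The gene expression of A549, a lung adenocarcinoma line, was set against that of RT4, a bladder tumour line that grew out of a well-differentiated transitional cell tumour. Membership was set by the cell line label alone, with 3 libraries labelled A549 and 3 labelled RT4, which is 6 of the 27 libraries of the series. The series holds 9 established human lines with 3 libraries each, sequenced as poly-A messenger RNA from strand-specific libraries. The A549 libraries carry the tissue label lung and came from cells in DMEM with 10% serum. The RT4 libraries carry the tissue label kidney and came from cells in McCoy medium with 10% serum. Streptomycin was in both media and neither line was treated. The series calls the 3 libraries of a line biological replicates without saying whether they came from separate cultures, so the spread behind each p-value is that between libraries and may be partly technical. Each line stands for 1 tumour, and line and medium cannot be told apart. A549 is known to carry inactivating changes of KEAP1, STK11 and SMARCA4, RT4 is known for a fusion of FGFR3 with TACC3, and both are known to lack the CDKN2A locus. These are background facts about the lines and were not read from the files.

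Urothelium, the lining of the bladder, is built from basal, intermediate and umbrella cells. The umbrella cells cover their surface with plaques of uroplakins, and GATA3, PPARG and FOXA1 hold the lineage. Alveolar type II cells of the lung make surfactant under the control of NKX2-1. Many lung adenocarcinomas keep that programme, while others lose it and take on mucinous or foregut features. NRF2, encoded by NFE2L2, is a transcription factor that KEAP1 marks for degradation through a CUL3 ligase. Where KEAP1 fails, NRF2 enters the nucleus with a small MAF partner and binds antioxidant response elements upstream of detoxification, thioredoxin, glutathione and pentose phosphate genes.

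Libraries held 17241482 to 28923542 estimated counts in A549 and 15951973 to 28199711 in RT4. Gene levels correlated with a Spearman coefficient of 0.9798 to 0.9923 between A549 libraries and of 0.9748 to 0.9858 between RT4 libraries, and of 0.8107 to 0.828 between a library of each line, all across genes, which are not independent replicates. Between 11938 and 11974 protein-coding genes reached 1 TPM (a level scaled to transcript length and to the library total) in A549, and between 11367 and 11758 in RT4. Mitochondrial genes took 1.54 to 1.9% of the counts in A549 and 4.14 to 5.88% in RT4. Of the 13 protein-coding mitochondrial genes tested, 11 were lower in A549 and none was higher, with a median log2 fold change of -1.58. The part of this difference in other results was not tested. Levels are given as TPM for libraries 1, 2 and 3 of a line. Differences are fitted log2 fold changes of A549 over RT4 on counts scaled by the trimmed mean of M-values, and over the 6416 genes with at least 10 TPM in both lines the log2 ratio of TPM means lay above the fitted value by a median of 0.29.

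A gene was called when the edgeR quasi-likelihood test gave a Benjamini-Hochberg adjusted p under 0.05 and the fold was at least 2. Of 17220 genes tested, 6496 (37.7%) were called, 3419 of them (19.9%) higher in A549 and 3077 (17.9%) lower. The median log2 fold change over all tested genes was 0.0. A difference of 16-fold or more was called for 1165 genes higher in A549 and 982 lower. The TPM values of the 6 libraries did not overlap between lines for 6091 of the called genes and overlapped for 405. No such count was taken over all tested genes, so these 2 counts add no support to the calls. Among the 6416 genes with at least 10 TPM in both lines, 3284 lay within 0.5 of 0 on the log2 scale. A549 had the highest mean of all 9 lines for 870 (25.4%) of the genes higher in it, and RT4 had the highest mean for 1327 (43.1%) of the genes lower in A549. These genes were picked for being higher in that line, which favours a first place, and no share was taken over all tested genes. First places given for gene lists below count all tested members, called or not. Where a called gene had 1 to 3 counts over the 3 libraries of the lower line, its fold is the ratio of counts scaled to the library totals with an exact 95% interval (CI), which covers counting error only. Gene list counts below are set beside the shares of 19.9% and 17.9%. The lists were chosen with earlier results of these data known, so their counts are descriptions and no independent support. Lists can also share genes, so their counts are not independent of each other.

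The largest changes were taken among called genes with at least 50 TPM in the higher line and no overlap between lines. They included secreted and membrane products on the A549 side and urothelial, squamous and antimicrobial products on the RT4 side, besides genes of other kinds. MUC5AC, a gel-forming airway mucin at chromosome 11:1157953-1201138 (GENCODE 29, GRCh38), had 66.7, 111 and 138 TPM in A549, against 0, 0 and 0.0075 TPM in RT4 (31038-fold higher, CI 10620 to 150509, adjusted p = 2.46e-14). CLDN2, a claudin that forms a cation pore in tight junctions, had 126, 229.7 and 390.2 TPM in A549, against 0, 0 and 0.016 TPM in RT4 (34816-fold higher, CI 6248 to 1375206, adjusted p = 3.87e-14). ALDH1A1, which oxidises retinaldehyde, had 7999, 9162 and 11009 TPM in A549, against 0.586, 0.204 and 1.45 TPM in RT4 (log2 fold change 13.51, SE 0.89, adjusted p = 3.96e-12). In each of these 3 genes all A549 libraries lay far above all RT4 libraries, which were at or near 0. SLC22A3, an organic cation transporter, had 59.7, 55.8 and 59.0 TPM in A549, against 0 TPM in all 3 RT4 libraries and was at least 2937-fold higher in A549, a bound computed against 3 counts over the 3 libraries at 0. The adhesion molecule CNTN1 had 362, 391 and 479 TPM in A549, against 0, 0 and 0.085 TPM in RT4 (log2 fold change 13.93), and the synaptic protein gene CPLX2 had 313, 369 and 381 TPM in A549, against 0, 0 and 0.146 TPM in RT4 (log2 fold change 12.87). TM4SF4 (at least 2514-fold), NPY4R (at least 1351-fold), FGB (at least 2586-fold) and FGG (at least 2004-fold) were also higher in A549 against RT4 libraries at 0, and MUC5B (log2 fold change 13.22) and the LIM protein gene CRIP1 (8040-fold higher, CI 2225 to 66394) complete the 12 largest.

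In the other direction, FABP4, a fatty acid chaperone and known PPARG target at chromosome 8:81478419-81483263, had 0, 1.36 and 0 TPM in A549, against 5059.8, 5421 and 4670.0 TPM in RT4 (log2 fold change -14.13, SE 0.76, adjusted p = 1.16e-13). VGLL1, a cofactor of TEAD factors at chromosome X:136532152-136556807, had 0 TPM in all 3 A549 libraries, against 333, 399.8 and 314 TPM in RT4, at least 6857-fold lower in A549. All 3 RT4 libraries lay far above all A549 libraries in both genes, with A549 at or near 0. S100A9, a neutrophil and squamous calcium-binding protein, had 0 TPM in all 3 A549 libraries, against 458, 948 and 479.6 TPM in RT4 (at least 4351-fold lower), and the interleukin-1 receptor antagonist gene IL1RN had 0 TPM in all 3 A549 libraries, against 107, 119 and 95.3 TPM in RT4 (at least 3450.1-fold lower). CD74, the invariant chain of MHC class II, had 0.429, 0.062 and 0 TPM in A549, against 473, 493 and 127 TPM in RT4 (log2 fold change -12.24), and RT4 library 3 lay well under the other RT4 libraries. TRIM31 (at least 5648-fold lower, its estimated counts in A549 rounding to 0), the connexin gene GJB6 (17279-fold lower, CI 3101 to 682542), CLCA4 (10080-fold lower, CI 2790 to 83239), UPK3A (at least 795-fold lower) and the cornified envelope gene IVL (7705-fold lower, CI 1382 to 304358) were also lower.

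**Figure D1:**
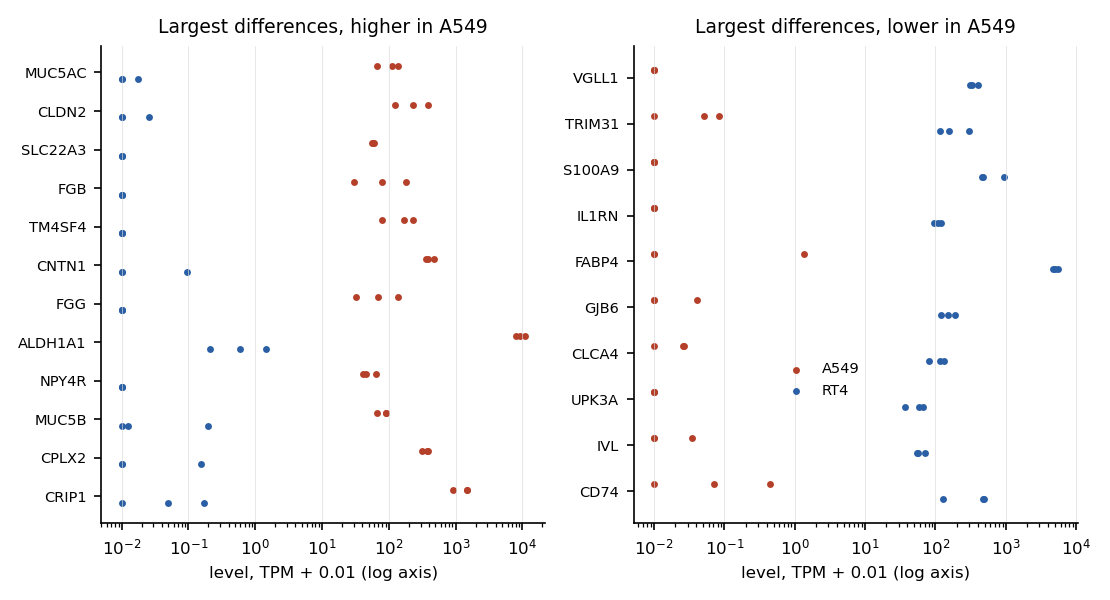
Levels (TPM + 0.01, log axis) of protein-coding genes among the 12 with the largest fold change in each direction, of those with at least 50 TPM in the higher line, 1 point per library. Only called genes without overlap in TPM between the lines were taken. The 3 A549 points of each gene therefore lie apart from the 3 RT4 points by the choice of genes. Most genes are at 0 in at least 1 library of the lower line.

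Over the 39 gene lists, the shares called departed furthest from all tested genes for urothelial, interferon, epithelial regulator and stratified genes on the lower side and for mesenchymal, mucin and NRF2 target genes on the higher side. These shares are described without a test of the lists, and when the test asked for a fold beyond 2, 21 of the 78 list counts moved by over 1.5 times.

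**Figure D2:**
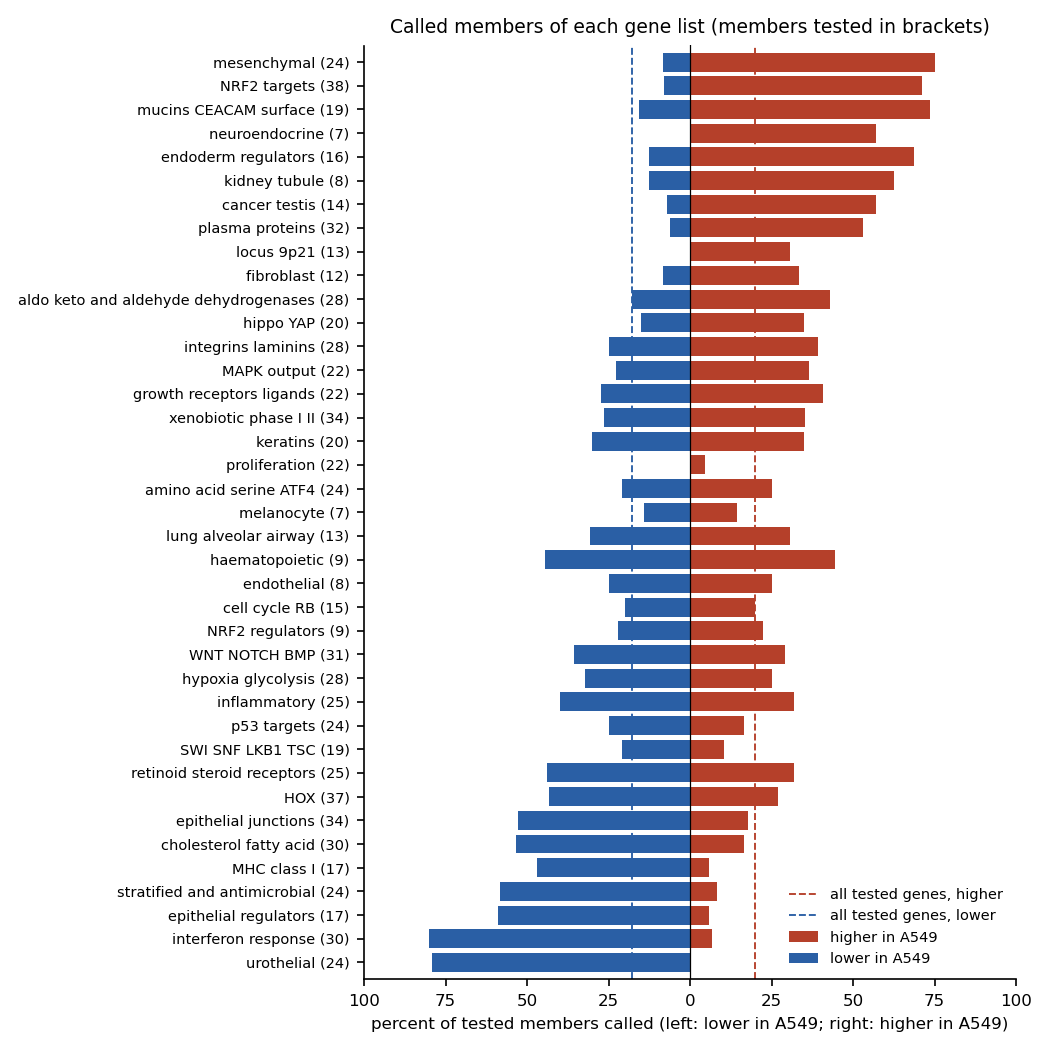
Percent of the tested members of each gene list called higher in A549 (right) or lower in A549 (left), with the number tested in brackets and lists sorted by the share higher minus the share lower. Dashed lines mark the shares over all tested genes, 19.9% higher and 17.9% lower; 79.2% of the urothelial list was lower and 75% of the mesenchymal list was higher.

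Most urothelial genes were lower in A549, and kidney tubule genes were low in both lines. Of 24 urothelial genes tested, none was higher in A549 and 19 were lower, with a median log2 fold change of -3.94, and RT4 had the highest mean of the 9 lines for 19. UPK2, a uroplakin at chromosome 11:118925164-118958559, had 0.144 ± 0.126 TPM in A549 and 163 ± 15.2 TPM in RT4 (SD, n = 3 each; log2 fold change -10.40, SE 0.57, adjusted p = 6.53e-13). UPK3A had 0 TPM in all 3 A549 libraries, against 57.8, 67.2 and 37.0 TPM in RT4. UPK1B, a tetraspanin partner of the uroplakins, had 11.9, 15.5 and 15.7 TPM in A549, against 103, 125 and 159 TPM in RT4 (log2 fold change -3.57, SE 0.34, adjusted p = 3.74e-08). The lines did not overlap for any of these, and A549 kept a measurable UPK1B level but almost none of UPK2 and UPK3A. GATA3, a zinc finger factor of the urothelial lineage, had 5.27, 6.49 and 4.46 TPM in A549, against 132, 155 and 177 TPM in RT4 (log2 fold change -5.59, SE 0.28, adjusted p = 2.42e-14), and PPARG, the nuclear receptor that drives urothelial maturation, had 30.7, 34.9 and 37.9 TPM in A549, against 204, 185 and 172 TPM in RT4 (log2 fold change -2.80, SE 0.19, adjusted p = 1.03e-11). FOXA1 was lower as well (log2 fold change -2.68), as was CYP4B1, a monooxygenase of the bladder lining, with 0.231 ± 0.255 TPM in A549 and 416 ± 85.5 TPM in RT4 (SD, n = 3 each; log2 fold change -11.98). KRT20, a marker of umbrella cells, had 10.1 TPM in A549 and 3.30 TPM in RT4 and was not called, but was called higher with the A549 and RT4 libraries fitted alone (log2 fold change 1.15, adjusted p = 0.0184). Of the 14 kidney tubule genes listed, 8 passed the filter on low counts, 5 were higher (3 without A549 library 3 or without any 1 RT4 library) and 1 was lower in A549, at low levels in both lines, the largest being the calcium-binding protein gene CALB1 with 9.12 ± 0.374 TPM in A549 and 0.855 ± 0.565 TPM in RT4 (log2 fold change 2.93).

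Surfactant and secretoglobin genes were near 0 in A549, as they were in RT4, whereas the airway mucins MUC5AC and MUC5B were abundant in A549. Of 20 lung genes listed, 13 were under 1 TPM in both lines, and the surfactant gene SFTPA1 and the secretoglobin genes SCGB1A1 and SCGB3A1 were at 0 in all 6 libraries. NKX2-1, the lung and thyroid homeodomain factor, averaged 0.013 TPM in A549 and 0.086 TPM in RT4, and SFTPB, the surfactant protein B gene, averaged 0.192 TPM in A549 and 0.230 TPM in RT4. Both were close to 0 in both lines. Of 13 lung genes tested, 4 were higher in A549 (MUC5AC, MUC5B, ABCA3 and ETV5) and 4 were lower. MUC5B had 83.0 TPM in A549 and 0.063 TPM in RT4, and A549 had the highest mean of the 9 lines for both mucins. ABCA3, the lipid pump of lamellar bodies, was present in A549 with 19.5, 22.4 and 18.2 TPM in A549, against 0.489, 0.160 and 0.441 TPM in RT4 (log2 fold change 6.07, SE 0.42, adjusted p = 7.66e-12). HOPX, known from alveolar type I cells and from differentiating squamous cells, was on the RT4 side with 0.023 ± 0.024 TPM in A549 and 60.4 ± 19.4 TPM in RT4 (1812-fold lower, CI 501 to 14965), as was LAMP3 (log2 fold change -5.13), a lysosomal protein of type II cells.

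Many of the regulators that hold epithelial identity were lower in A549. Of 17 epithelial regulators tested, 1 was higher in A549 and 10 were lower, with a median log2 fold change of -4.63, and RT4 ranked first of 9 lines for 12. ELF3, GRHL3, KLF5 and TP63 are also members of the urothelial list and are counted in both. ESRP1, a splicing regulator of epithelial exons, had 0.056, 0.091 and 0.064 TPM in A549, against 96.5, 80.3 and 87.7 TPM in RT4 (log2 fold change -10.99, SE 0.50, adjusted p = 6.63e-15). GRHL2, a grainyhead factor that maintains epithelial enhancers, had 0, 0.061 and 0 TPM in A549, against 22.8, 37.7 and 32.8 TPM in RT4 (4740-fold lower, CI 1312 to 39147, adjusted p = 8.58e-15). OVOL1, a repressor of mesenchymal genes, had 0 TPM in all 3 A549 libraries, against 7.09, 19.2 and 18.3 TPM in RT4, at least 833-fold lower. A549 was at or close to 0 in all 3 genes, with no overlap with RT4. ESRP2 (log2 fold change -10.03), GRHL1 (log2 fold change -5.83), GRHL3 (log2 fold change -4.67), OVOL2 (log2 fold change -4.63), ELF5 and TP63 were also lower. Other regulators did not pass the test. The ETS factor ELF3 had 373 ± 28.9 TPM in A549 and 497 ± 109 TPM in RT4 (SD, n = 3 each; log2 fold change -0.61, adjusted p = 0.0618) and KLF5 had 89.8 ± 11.8 TPM in A549 and 122 ± 8.89 TPM in RT4 (log2 fold change -0.83, adjusted p = 0.0663), and neither was called. EHF, KLF4, TFAP2A and TFAP2C were not called either, and the only member higher in A549 was PRDM1, at 1.36 TPM in A549 and 0.171 TPM in RT4 (log2 fold change 2.91).

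Cell contact genes went the same way with exceptions. Of 34 junction genes tested, 6 were higher and 18 lower in A549 (median log2 fold change -1.21). E-cadherin (CDH1) had 36.9, 41.3 and 43.7 TPM in A549, against a mean of 212 ± 12.8 TPM in RT4 (SD, n = 3; log2 fold change -2.63, SE 0.35, adjusted p = 6.05e-07), so A549 expressed it at a lower level without overlap. P-cadherin (CDH3) had 0.268 ± 0.103 TPM in A549 and 89.1 ± 9.26 TPM in RT4 (log2 fold change -9.90), and the connexin genes GJB6, with 0, 0.031 and 0 TPM in A549, against 187, 119 and 151 TPM in RT4 (17279-fold lower, CI 3101 to 682542), and GJB2 (log2 fold change -7.02) were close to absent from A549. EPCAM (log2 fold change -4.90) and CLDN4 (log2 fold change -5.36) were lower as well. Higher members included CLDN2 and the scaffold gene TJP1 (log2 fold change 1.25), whose call was lost with an offset for effective length (log2 fold change 0.60, adjusted p = 0.0967) and when the test asked for a fold beyond 2.

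Of 24 mesenchymal genes tested, 18 were higher in A549 and 2 were lower, with a median log2 fold change of 3.45. Vimentin (VIM), an intermediate filament of mesenchymal cells at chromosome 10:17228259-17237593, had 1014, 927 and 749 TPM in A549, against 0.438, 0.293 and 1.55 TPM in RT4 (log2 fold change 9.85, SE 0.50, adjusted p = 3.83e-14). ZEB1, a repressor of E-cadherin, had 11.1, 8.94 and 11.5 TPM in A549, against 0.0082, 0 and 0.215 TPM in RT4 (log2 fold change 8.03, SE 0.39, adjusted p = 1.67e-14). N-cadherin (CDH2, log2 fold change 8.34), fibronectin (FN1, log2 fold change 5.04), COL5A1 (log2 fold change 9.71) and the receptor kinase gene AXL (log2 fold change 8.79) were higher. SNAI2 (log2 fold change -4.45), a zinc finger repressor that basal epithelial cells also express, and COL3A1 (log2 fold change -2.83) were the 2 lower. A549 ranked first of the 9 lines for none of the 24, so its mesenchymal levels were high against RT4 and not against every other line. Of 12 fibroblast markers tested, 4 were higher (2 without RT4 library 2) and 1 was lower in A549, and PDGFRB averaged 0.276 TPM in A549 and 0.079 TPM in RT4.

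Keratin genes were called in both directions, and most stratified and antimicrobial genes tested were lower in A549. Of 20 keratin genes tested, 7 were higher and 6 lower in A549 (median log2 fold change 0.68). KRT81, a hair keratin, had 1367, 1407 and 844 TPM in A549, against 0.053, 0.048 and 0.322 TPM in RT4 (log2 fold change 12.61, SE 0.90, adjusted p = 1.63e-11), and the simple-epithelium pair was also higher in A549, KRT8 with 5449 TPM in A549 and 987 TPM in RT4 (log2 fold change 1.89) and KRT18 with 5611 TPM in A549 and 1124 TPM in RT4 (log2 fold change 2.02). KRT17, a basal and stress keratin, had 0.591, 0.402 and 0.126 TPM in A549, against 910.1, 807 and 800.1 TPM in RT4 (log2 fold change -11.60, SE 0.90, adjusted p = 6.39e-11). Both KRT81 and KRT17 were near 0 in every library of the lower line. KRT19 (log2 fold change -3.06) was lower, and KRT4 (7642-fold higher, CI 2115 to 63106), a mucosal keratin, was higher. Of 24 stratified and antimicrobial genes tested, 2 were higher and 14 lower (median log2 fold change -5.14, or -3.42 with genes at 0 in a line set to their bound). S100A2, a calcium-binding protein of basal cells, had 13.4, 13.7 and 10.6 TPM in A549, against 6589.6, 6069.8 and 7108 TPM in RT4 (log2 fold change -9.30, SE 0.55, adjusted p = 5.03e-13). S100P (log2 fold change -4.13) and IVL were lower, while SLPI (log2 fold change 3.38), a secreted protease inhibitor, and CNFN (log2 fold change 1.80, adjusted p = 0.0105) were the 2 higher, the call of CNFN being lost without A549 library 2 or RT4 library 2.

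TP63, a p53 family factor of basal epithelium at chromosome 3:189631416-189897279, differed both in level and in transcript. The gene had 14.8, 16.2 and 15.7 TPM in A549, against 91.3, 84.3 and 80.1 TPM in RT4 (log2 fold change -3.05, SE 0.34, adjusted p = 8.96e-08). ENST00000354600, which starts at the internal promoter and lacks the transactivation domain, made up 0, 0 and 0.2% of the TPM of TP63 in A549 and 93.8, 80.4 and 82.1% in RT4. ENST00000264731, which starts at the upstream promoter, made up 63.9, 61.7 and 70.5% in A549 and 2.0, 1.7 and 2.0% in RT4. In level, ENST00000264731 was therefore also the higher one in A549, at 9.48, 10 and 11 TPM against 1.85, 1.42 and 1.58 TPM in RT4. A further 20.1, 27.3 and 15.2% of the A549 level was assigned to ENST00000486398, a retained-intron transcript at 0 in RT4. The other large share was that of ENST00000456148, a further transcript from the internal start, with 13.1, 4.7 and 11.7% in A549 and 3.2, 16.4 and 13.5% in RT4, where the lines overlapped. RT4 had the highest mean of the 9 lines for the gene and A549 the next highest, and no other line passed 1.57 TPM.

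The start sites of ENST00000264731 and ENST00000354600 lie 158233 bases apart on the plus strand of chromosome 3, at 189631427 and 189789660. Their coding sequences of 2040 and 1758 bases share the last 1717 bases, so that 323 bases are particular to ENST00000264731 and 41 to ENST00000354600. The last 90 of the 323 bases and all 41 bases are shown in capitals, because they are among those that tell the 2 transcripts apart. The first 30 shared bases follow in lower case. The letters come from the GENCODE 29 transcript sequences, cut to the annotated coding ranges.
ENST00000264731: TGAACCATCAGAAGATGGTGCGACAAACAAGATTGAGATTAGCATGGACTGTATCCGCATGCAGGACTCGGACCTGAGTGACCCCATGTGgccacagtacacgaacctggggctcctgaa
ENST00000354600: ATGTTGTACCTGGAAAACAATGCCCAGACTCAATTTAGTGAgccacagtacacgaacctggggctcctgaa

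**Figure D3:**
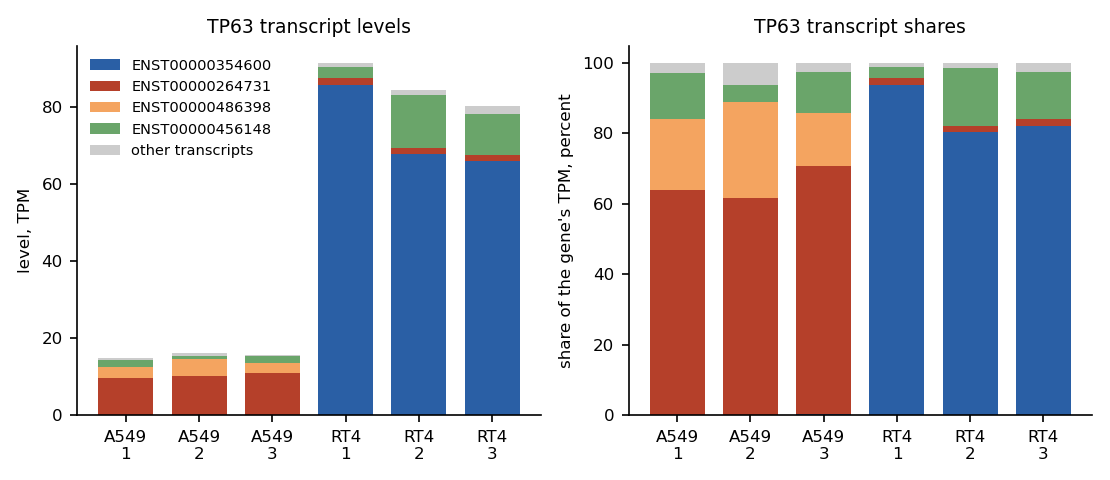
TP63 transcript levels (TPM, left) and shares of the gene's TPM (percent, right) in each library. The 3 A549 bars hold mostly ENST00000264731 at gene levels of 14.8 to 16.2 TPM, and the 3 RT4 bars, at 80.1 to 91.3 TPM, hold mostly ENST00000354600.

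Many foregut and liver-type genes were higher in A549 than in RT4, although the summed level of the endoderm regulators overlapped between the lines. Summed over the 16 endoderm regulators, levels were 90.9 to 139 TPM in A549 libraries and 72.0 to 119 TPM in RT4 libraries. Of the 16, 11 averaged at least 1 TPM in A549 and 5 in RT4, and the sums include FOXA1, which was lower in A549. A549 ranked first of the 9 lines for 1 of the 16. Of 16 endoderm regulators tested, 11 were higher in A549 and 2 were lower, with a median log2 fold change of 4.9 (4.61 with genes at 0 in a line set to their bound). FOXA2, a forkhead factor of foregut endoderm at chromosome 20:22581005-22585455, had 15.2, 15.5 and 17.9 TPM in A549, against 0 TPM in all 3 RT4 libraries, at least 582-fold higher in A549. HNF4A, a nuclear receptor of liver and gut, had 11.0, 10.2 and 9.77 TPM in A549, against 0.0068, 0.062 and 0.029 TPM in RT4 (log2 fold change 7.50, SE 0.36, adjusted p = 1.42e-14). FOXA3 (at least 229-fold), HNF4G (log2 fold change 5.35), SOX2 (log2 fold change 5.97) and SOX9 (log2 fold change 2.43) were higher, with A549 means between 6.81 TPM for HNF4G and 19.9 TPM for SOX9. The levels of these factors in A549 were modest, and RT4 was at or near 0 in most of them. FOXA1 and NKX2-1 were the 2 lower, and the NKX2-1 call rests on means under 0.1 TPM and was lost without A549 library 2 or 3 or RT4 library 1 or 3.

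Of 32 plasma protein genes tested, most of them known as products of hepatocytes, 17 were higher in A549, 13 were not called and 2 were lower, among them SERPIND1 (median log2 fold change 2.74, or 2.32 with genes at 0 in a line set to their bound), and 15 of the 33 listed were under 1 TPM in both lines. The fibrinogen beta chain gene FGB had 29.8, 78.5 and 179 TPM in A549, against 0 TPM in all 3 RT4 libraries, and FGG had 32.5, 70.0 and 139 TPM in A549, against 0 TPM in all 3 RT4 libraries. Every A549 library was above every RT4 library, but the A549 libraries themselves spanned several-fold. FGA (4115-fold higher, CI 1139 to 33987), APOH (log2 fold change 9.74), VTN (log2 fold change 7.24) and C5 (log2 fold change 6.44) were higher. A549 ranked first of the 9 lines for 2 of the 32 plasma protein genes. The 33 listed summed to 317 to 1079 TPM in A549 libraries and 212 to 392 TPM in RT4 libraries. Of 19 mucin, CEACAM and surface glycoprotein genes tested, 14 were higher in A549 and 3 were lower (median log2 fold change 4.94, or 4.58 with genes at 0 in a line set to their bound), and A549 ranked first of the 9 lines for 11. With the transcripts outside the primary assembly added, 14 were higher and 5 lower of 21. CEACAM6, an adhesion glycoprotein of mucosal tumours, had 1232, 1198 and 1133 TPM in A549, against 0.205, 0.248 and 0.645 TPM in RT4 (log2 fold change 11.48, SE 0.81, adjusted p = 1.19e-11). MUC13 (5743-fold higher, CI 1030 to 226861), the mucous cell factor gene SPDEF (log2 fold change 6.21), the mucin glycosyltransferase gene GCNT3 (log2 fold change 7.09), TFF1 (log2 fold change 4.58) and AGR2 (log2 fold change 2.52) were higher, and the glycosyltransferase gene GALNT3 (log2 fold change -7.50) and CEACAM1 (log2 fold change -2.35) were lower.

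NRF2 target genes were high in A549 although the transcript of NRF2 itself was not. Of 38 targets tested, 27 were higher in A549, 3 were lower and 8 were not called, with a median log2 fold change of 2.3, and A549 ranked first of the 9 lines for 28. Of 9 regulators tested, 2 were higher and 2 lower. NFE2L2 had 60.6, 58.8 and 76.9 TPM in A549, against 116, 142 and 126 TPM in RT4 (log2 fold change -1.23, SE 0.22, adjusted p = 3.05e-05), and KEAP1 had 54.4, 48.5 and 57.5 TPM in A549, against 59.7, 56.9 and 48.8 TPM in RT4 (log2 fold change -0.16, SE 0.17, adjusted p = 0.462), so the KEAP1 levels overlapped. MAFG, a small MAF partner, was higher (log2 fold change 1.80), as was BACH1 (log2 fold change 1.31), a repressor of the same elements, and MAFF was lower (log2 fold change -3.54). NFE2L2 and BACH1 lost their calls when the test asked for a fold beyond 2 (adjusted p = 0.15 and 0.146). That left 1 regulator higher and 1 lower.

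Thioredoxin reductase (TXNRD1), at chromosome 12:104215779-104350305, had 981, 1152 and 1198 TPM in A549, against 32.0, 46.4 and 42.0 TPM in RT4 (log2 fold change 4.39, SE 0.19, adjusted p = 3.45e-15). The pentose phosphate enzyme gene PGD, at chromosome 1:10398592-10420144, had 1278, 1387 and 1605 TPM in A549, against 66.1, 91.4 and 81.7 TPM in RT4 (log2 fold change 3.88, SE 0.14, adjusted p = 1.1e-16). In both genes the A549 libraries lay far above the RT4 libraries, with no overlap. The quinone reductase gene NQO1 was already abundant in RT4, with 3840.0, 4219 and 4862 TPM in A549, against 673, 817 and 805 TPM in RT4 (log2 fold change 2.22, SE 0.19, adjusted p = 5.41e-10). AKR1B10, an aldo-keto reductase at chromosome 7:134527592-134541408, had 4041, 5341 and 7141 TPM in A549, against 0.901, 2.33 and 2.15 TPM in RT4 (log2 fold change 11.27, SE 0.68, adjusted p = 6.94e-13), and ABCC2, an export pump for conjugates, had 142, 151 and 194 TPM in A549, against 0.033, 0.090 and 0.342 TPM in RT4 (log2 fold change 11.15, SE 0.41, adjusted p = 1.65e-16). RT4 was near 0 in both AKR1B10 and ABCC2, and every A549 library was far above it. The ferritin light chain gene FTL had 16146, 16668 and 15218 TPM in A549, against 1218, 1294 and 908 TPM in RT4 (log2 fold change 3.50, SE 0.24, adjusted p = 9.7e-12) and was the most abundant protein-coding gene of A549, whereas the heavy chain gene FTH1 had 6048 TPM in A549 and 6868 TPM in RT4 and was not called (log2 fold change -0.49). ALDH3A1 (log2 fold change 6.27), AKR1C1 (log2 fold change 4.75), the cystine importer gene SLC7A11 (log2 fold change 2.92), UGDH (log2 fold change 3.16) and ME1 (log2 fold change 2.76) were higher.

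The exceptions were specific members. HMOX1, haem oxygenase, had 49.4, 47.8 and 44.6 TPM in A549, against 77.8, 107 and 68.0 TPM in RT4 (log2 fold change -1.11, adjusted p = 0.000179), PIR had 98.9, 100.2 and 120.0 TPM in A549, against 208, 190.1 and 168 TPM in RT4 (log2 fold change -1.11, adjusted p = 5.82e-05) and CBR3 had 7.87, 7.60 and 7.22 TPM in A549, against 12.3, 14.7 and 12.7 TPM in RT4 (log2 fold change -1.10, adjusted p = 0.000582), and each was lower in A549 by little more than 2-fold. All 3 lost the call when the test asked for a fold beyond 2, HMOX1 also without RT4 library 2 (log2 fold change -0.98), PIR without RT4 library 1 (-0.94) and CBR3 with the P number of the titles as a replicate block (-0.89, adjusted p = 0.0197). The glutathione synthesis genes GCLC (log2 fold change 0.20, adjusted p = 0.516) and GCLM (log2 fold change 0.76, adjusted p = 0.0104), glutathione reductase GSR (log2 fold change 0.70), TKT (log2 fold change 0.49), GPX2 (log2 fold change 0.61), NR0B1 (log2 fold change 0.63) and IDH1 (log2 fold change -0.69) were not called.

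**Figure D4:**
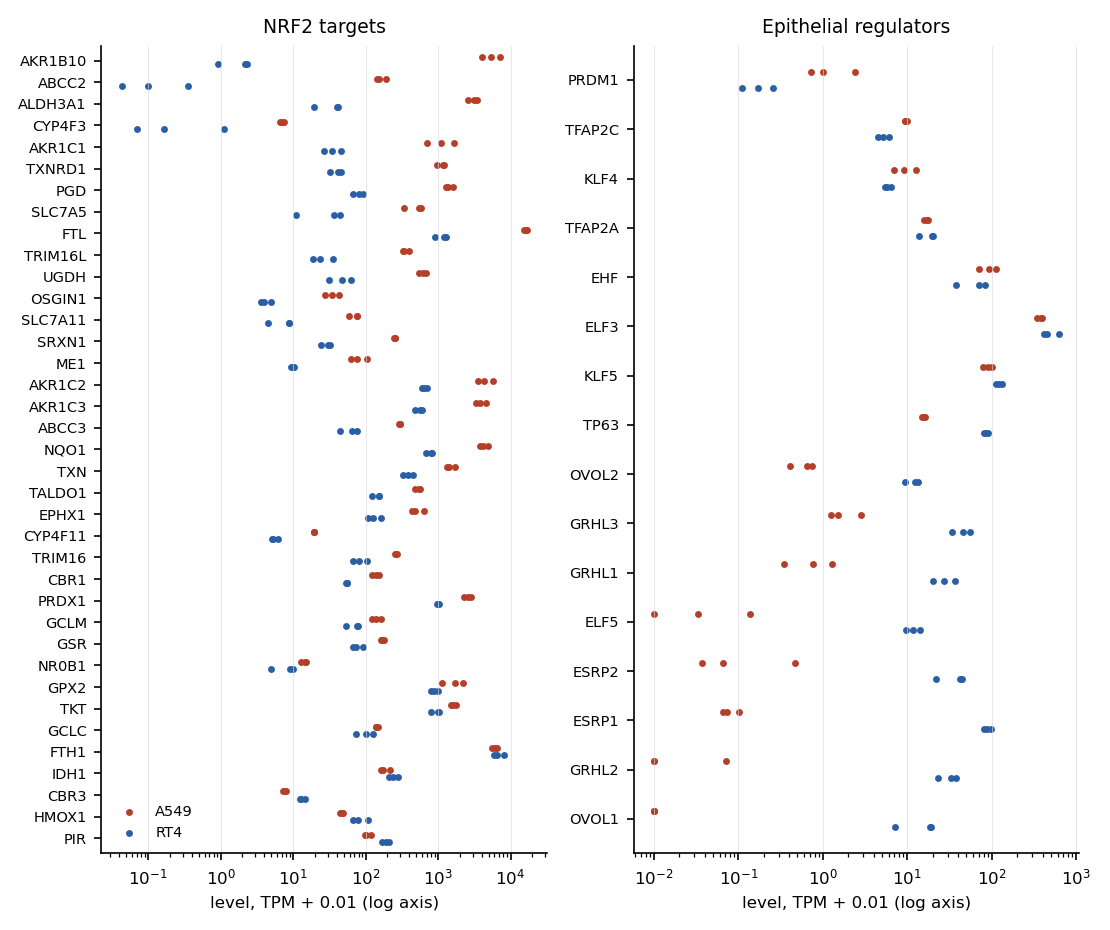
Levels (TPM + 0.01, log axis) of tested NRF2 targets (left) and epithelial regulators (right), 1 point per library, sorted by log2 fold change. NRF2 targets called higher in A549 lead the left panel, and epithelial regulators called lower close the right panel.

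The core of the antioxidant response element, TGACNNNGC, was looked for on both strands in the RefSeq promoter windows of GRCh38.p14, which run from 250 bases before to 50 bases after a start site. A table entry was found for 27 of the 38 targets, and 9 of them (33.3%) held the core, against 3702 of all 27305 promoters (13.6%) and 2123 of 14792 promoters of protein-coding genes (14.4%). Of the 9 genes with the core 6 were higher in A549, 1 was lower and 2 were not called, and of the 18 without it 14 were higher, none was lower and 4 were not called. With the window cut to the last 150 bases before the start, 4 of 27 (14.8%) held it, against 7.39% of all promoters. A match is a description of these letters and not a bound site, and the elements known for several targets lie farther upstream than the windows reach. The windows below show 30 bases on the gene's strand with the core in capitals (GCNNNGTCA where it reads on the other strand), for 4 targets that were higher in A549 (TXNRD1, PGD, ME1 and SLC7A5), the 1 that was lower (PIR) and the 2 that were not called (GCLM and GPX2), so that the same core can be seen across all 3 outcomes. TXNRD1 and ME1 hold a further core each that is not shown.
TXNRD1, chr12:104215670-104215699, plus strand: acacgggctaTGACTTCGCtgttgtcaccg
PGD, chr1:10398853-10398882, plus strand: cctcgccgggGCAATGTCAtctaggtgctc
ME1, chr6:83431169-83431198, minus strand: tctcctgccaTGACTCAGCgcttctcgcag
SLC7A5, chr16:87869490-87869519, minus strand: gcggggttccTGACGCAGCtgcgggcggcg
PIR, chrX:15493288-15493317, minus strand: gccgcgaagcGCTGAGTCAcggtgaggcta
GCLM, chr1:93909445-93909474, minus strand: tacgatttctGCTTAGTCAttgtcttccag
GPX2, chr14:64942848-64942877, minus strand: acctgtttttGCTAAGTCAtcctggggatg

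Aldehyde and xenobiotic metabolism genes differed member by member. NRF2 targets were not removed from these lists, so a gene can be counted in both. Of 28 aldo-keto reductase and aldehyde dehydrogenase genes tested, 12 were higher and 5 lower in A549. ALDH1A1, ALDH2 (log2 fold change 6.60) and ALDH3B1 (log2 fold change 7.68) stood on the A549 side, and ALDH1L1 (log2 fold change -11.62), a folate enzyme, ALDH1A2 (log2 fold change -6.99) and ALDH1A3 (log2 fold change -3.25), which make retinoic acid, on the RT4 side. Of 34 phase I and phase II genes tested, 12 were higher and 9 lower (median log2 fold change 0.07). GSTP1, a glutathione transferase at chromosome 11:67583595-67586656, had 1023, 1222 and 979 TPM in A549, against 0.359, 1.25 and 0.866 TPM in RT4 (log2 fold change 10.23, SE 0.44, adjusted p = 1.76e-15). CYP24A1, which breaks down vitamin D, had 502, 388 and 422 TPM in A549, against 7.59, 6.04 and 5.55 TPM in RT4 (log2 fold change 5.86), and NNMT had 340.0 TPM in A549 and 0.208 TPM in RT4 (log2 fold change 10.73). The GSTP1 transcript was close to absent from all RT4 libraries and among the abundant ones of A549. CYP2J2 (log2 fold change -10.76), UGT1A6 (log2 fold change -4.85) and GSTM3 (log2 fold change -3.64) were lower in A549. The UGT1A genes share their last exons, so reads may be split between them.

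Growth factor receptors were called in both directions. Of 22 receptors and ligands tested, 9 were higher and 6 lower in A549 (median log2 fold change -0.08). FGFR1, at chromosome 8:38400215-38468834, had 42.7, 35.7 and 30.5 TPM in A549, against 0.320, 0.395 and 0.479 TPM in RT4 (log2 fold change 7.47, SE 0.23, adjusted p = 1.6e-17). FGFR3, at chromosome 4:1793293-1808872, had 2.81, 5.38 and 5.01 TPM in A549, against 29.8, 44.5 and 47.9 TPM in RT4 (log2 fold change -3.33, SE 0.38, adjusted p = 6.45e-08). MET, the receptor of hepatocyte growth factor, had 104, 99.8 and 109 TPM in A549, against 14.7, 13.1 and 13.8 TPM in RT4 (log2 fold change 2.66, SE 0.38, adjusted p = 1.75e-06). FGFR1 and MET were thus on the A549 side and FGFR3 on the RT4 side in every library. FGFR4 (log2 fold change 4.83) was higher, and FGFR2 (log2 fold change -3.31), ERBB3 (log2 fold change -3.96) and the insulin receptor gene INSR (log2 fold change -2.52) were lower. TACC3, the fusion partner of FGFR3 in RT4, had 64.0, 55.6 and 45.3 TPM in A549, against 131, 177 and 154 TPM in RT4 (log2 fold change -1.64, adjusted p = 0.016), and lost its call without A549 library 3 (log2 fold change -1.51). Among ligands, NRG1 (log2 fold change 4.69), AREG (log2 fold change 4.36) and EREG (log2 fold change 4.31) were higher in A549. EGFR had 38.1 ± 6.47 TPM in A549 and 28.3 ± 2.15 TPM in RT4 (SD, n = 3 each; log2 fold change 0.16, adjusted p = 0.645) and ERBB2 had 60.4 ± 3.24 TPM in A549 and 77.0 ± 30.3 TPM in RT4 (log2 fold change -0.91, adjusted p = 0.000509), and neither was called.

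Genes downstream of the MAPK pathway did not move in 1 direction, with 8 higher and 5 lower among 22 tested. The phosphatase gene DUSP4 (log2 fold change 3.92) and the ETS factor genes ETV1 (log2 fold change 5.85) and ETV5 (log2 fold change 2.32) were higher in A549, while the phosphatase genes DUSP6, with 14.5, 12.0 and 22.5 TPM in A549, against 40.4, 185 and 100.2 TPM in RT4 (log2 fold change -2.95, SE 0.32, adjusted p = 3.04e-08), and DUSP5 (log2 fold change -2.39) were lower. Another lower member, IER3, lost that call and its direction when transcripts outside the primary assembly were added (log2 fold change 0.94, adjusted p = 0.0215).

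Both lines lacked counts at the core of the 9p21 locus. CDKN2A, at chromosome 9:21967753-21995301, and CDKN2B, at chromosome 9:22002903-22009363, which encode inhibitors of CDK4 and CDK6, had 0 estimated counts in all 6 libraries, which allows up to 3 counts over the libraries of a line from counting error alone. Of the 21 libraries of the other lines, 11 reached 1 TPM for CDKN2A, with a highest value of 93.7 TPM, and 12 reached it for CDKN2B, with a highest value of 19.8 TPM. MTAP, the neighbouring gene of methionine salvage, had 0.260 ± 0.170 TPM in A549 and 0.473 ± 0.216 TPM in RT4 (SD, n = 3 each), while 20 of the 21 other libraries reached 1 TPM. Further out, MLLT3 (log2 fold change 1.60) and FOCAD (log2 fold change 1.01) were higher in A549, FOCAD at the threshold and not called in most other settings. Of 15 cell cycle genes tested, 3 were higher and 3 lower (1 lower without RT4 library 2). CDK6 had 7.50, 8.01 and 9.32 TPM in A549, against 0.439, 0.537 and 0.856 TPM in RT4 (log2 fold change 3.91, SE 0.29, adjusted p = 2.75e-11), CCND3 was higher (log2 fold change 1.80), and CCND2 had 0, 0 and 0.0081 TPM in A549, against 26.8, 17.2 and 14.4 TPM in RT4 (8049-fold lower, CI 1444 to 317956, adjusted p = 2.23e-12). CCND3 was thus on the A549 side and CCND2 on the RT4 side, with no overlap in either. Of 22 proliferation genes 1 was higher, TOP2A (log2 fold change 1.34, adjusted p = 0.0361), and none was lower. The TOP2A call was lost in 9 of the other settings tried, 5 of which left out 1 library (A549 1, 2 or 3, or RT4 1 or 2), and DESeq2 gave the gene no adjusted p. Of the same 22 genes, 3 were higher with the A549 and RT4 libraries fitted alone or with the replicate block, and 1 was lower without A549 library 1 or RT4 library 1. Of 24 p53 targets tested, 4 were higher and 6 lower (median log2 fold change -0.01), among them BTG2 (log2 fold change -4.82), PHLDA3 (log2 fold change -3.37) and GDF15 (log2 fold change -2.80) on the lower side and the TNF receptor family gene EDA2R (log2 fold change 8.12) on the higher.

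SMARCA4, the ATPase of SWI/SNF chromatin remodellers at chromosome 19:10960825-11079426, had 3.95, 2.42 and 1.98 TPM in A549, against 76.1, 92.1 and 98.4 TPM in RT4 (log2 fold change -5.25, SE 0.30, adjusted p = 2.31e-13). A549 was the lowest of the 9 lines, and the means of the other 7 ran between 50.4 and 80.4 TPM. STK11, the LKB1 kinase gene, had 17.6, 17.6 and 16.1 TPM in A549, against 23.4, 31.8 and 30.8 TPM in RT4 (log2 fold change -1.35, SE 0.26, adjusted p = 8.23e-05). The STK11 call was lost when the test asked for a fold beyond 2 (adjusted p = 0.0923). Of 19 SWI/SNF, LKB1 and TSC genes tested, 2 were higher and 4 lower, or 1 higher and 2 lower with that test. The paralogous ATPase gene SMARCA2 had 43.4 ± 3.70 TPM in A549 and 24.0 ± 5.05 TPM in RT4 (SD, n = 3 each; log2 fold change 0.91, adjusted p = 0.000152) and was not called, SMARCD3 was higher (log2 fold change 4.06), and TSC2 was higher (log2 fold change 1.24), a call lost with an offset for effective length (log2 fold change 0.87) and when the test asked for a fold beyond 2 (adjusted p = 0.179).

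Interferon-response genes were lower in A549 almost throughout. Of 30 tested, 24 were lower and 2 were higher, with a median log2 fold change of -2.56, and RT4 ranked first of the 9 lines for 11. OAS2, an antiviral synthetase, had 0.123, 0.254 and 0.1 TPM in A549, against 54.9, 54.3 and 30.2 TPM in RT4 (log2 fold change -9.12, SE 0.62, adjusted p = 6.88e-12). MX1 (log2 fold change -4.46), ISG15 (log2 fold change -3.95) and IFIT3 (log2 fold change -2.91) were lower too. The RT4 libraries differed among themselves for several members. IFI27 had 37.6, 8.03 and 1.24 TPM in RT4, IRF9 had 85.8, 42.3 and 11.0 TPM, and BST2 had 24.7, 8.15 and 1.90 TPM in RT4, and RT4 library 3 was the lowest each time. IFITM2, an antiviral membrane protein, had 113, 115 and 151 TPM in A549, against 0, 0.204 and 0 TPM in RT4 (2643-fold higher, CI 474 to 104447), and since IFITM3 is a near-identical copy its reads may be split. ISG20 (log2 fold change 1.74) was the other higher member.

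Antigen presentation was read with the transcripts listed outside the primary assembly added to their genes by symbol, a step chosen after the data were seen, because much of the HLA signal is assigned to alternate haplotypes. On those sums, 12 of 17 MHC class I genes were lower in A549 and 1 was higher, with a median log2 fold change of -1.67, where 8 were lower and 1 higher without the addition. The shares of all genes were 19.9% higher and 17.9% lower on those sums as well. HLA-B had 7.58, 7.56 and 7.24 TPM in A549, against 297, 277 and 183 TPM in RT4 (log2 fold change -5.46, SE 0.33, adjusted p = 7.57e-13). The light chain gene B2M had 1011, 1269 and 1644 TPM in A549, against 7060.1, 7249 and 5289.8 TPM in RT4 (log2 fold change -2.60, SE 0.22, adjusted p = 3.71e-10). In every A549 library both were below every RT4 library. HLA-C (log2 fold change -3.22), HLA-E (log2 fold change -1.81), the peptide transporter gene TAP1 (log2 fold change -1.73) and the immunoproteasome genes PSMB8 (log2 fold change -1.61) and PSMB9 (log2 fold change -1.67) were lower. TAP2 was not called (log2 fold change -0.55, adjusted p = 0.0383), and NLRC5, a transactivator of MHC class I, was the member that was higher (log2 fold change 1.59), a call lost with an offset for effective length in the sums without the addition (log2 fold change 0.62, adjusted p = 0.115).

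Inflammatory signals were split. Of 25 cytokine and NF-kappaB genes tested, 8 were higher and 10 lower (median log2 fold change -0.56). The neutrophil chemokine gene CXCL5 had 246 TPM in A549 and 0.182 TPM in RT4 (log2 fold change 10.13) and the monocyte chemokine gene CCL2 had 17.9, 26.8 and 22.0 TPM in A549, against 0 TPM in all 3 RT4 libraries (at least 191-fold higher). The alarmin gene IL1A had 0.084 TPM in A549 and 80.6 TPM in RT4 (log2 fold change -10.17), and IL1B (log2 fold change -7.04), the NF-kappaB inhibitor gene NFKBIA (log2 fold change -3.57) and CCL20 (at least 302-fold lower) were lower in A549.

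Sterol and fatty acid synthesis genes were more often on the RT4 side. Of 30 tested, 5 were higher and 16 lower in A549, or 8 lower when the test asked for a fold beyond 2 (median log2 fold change -1.02), and 5 and 15 with the added transcripts, because ACACA was then not called (log2 fold change 0.64, adjusted p = 0.000717). FDFT1, the squalene synthase gene, had 116, 141 and 162 TPM in A549, against 685, 852 and 758 TPM in RT4 (log2 fold change -2.76, SE 0.21, adjusted p = 4.15e-11). SC5D (log2 fold change -2.10), a late enzyme of cholesterol synthesis, and the fatty acid synthase gene FASN (log2 fold change -1.62) were lower. The fatty acid activating gene ACSL5 had 0.659, 1.5 and 2.25 TPM in A549, against 164, 182 and 145 TPM in RT4 (log2 fold change -7.11, SE 0.39, adjusted p = 1.71e-13). The fatty acid desaturase genes FADS1 and FADS2 were higher, with FADS2 at 331, 390.2 and 445 TPM in A549, against 2.09, 4.11 and 2.34 TPM in RT4 (log2 fold change 6.69, SE 0.41, adjusted p = 8.86e-13) and FADS1 with a log2 fold change of 3.22, and so was ACLY (log2 fold change 1.24), which makes cytosolic acetyl-CoA. Hypoxia and glycolysis genes gave 7 higher and 9 lower of 28. Hexokinase 2 (HK2) had 0.397 TPM in A549 and 31.0 TPM in RT4 (log2 fold change -6.52), the glucose transporter gene SLC2A3 13.6 TPM in A549 and 0.430 TPM in RT4 (log2 fold change 5.63), and the regulator gene PFKFB3 119.9 TPM in A549 and 3.79 TPM in RT4 (log2 fold change 4.76). Of 24 amino acid and ATF4 genes, 6 were higher and 5 lower (3 lower without A549 library 2 or 3), with SLC7A5 (log2 fold change 3.64) and the lipoprotein receptor gene VLDLR (log2 fold change 3.10) higher and SESN2 (log2 fold change -2.49) and ATF5 (log2 fold change -2.06) lower.

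Matrix contact genes were called in both directions. Of 28 integrin, laminin and basement membrane genes tested, 11 were higher and 7 lower in A549. Integrin beta 1 (ITGB1), at chromosome 10:32900319-33005792, had 1671, 1777 and 1912 TPM in A549, against 90.9, 83.5 and 89.3 TPM in RT4 (log2 fold change 3.99, SE 0.20, adjusted p = 2.26e-14). COL4A1 (log2 fold change 9.32) and COL4A2 (log2 fold change 9.33), the main chains of basement membrane collagen, were higher, and the hemidesmosomal collagen gene COL17A1 (log2 fold change -4.47) and ITGB6 (log2 fold change -4.85) were lower. Among Hippo pathway genes, 7 of 20 were higher and 3 lower. The YAP target genes CTGF (log2 fold change 8.22) and ANKRD1 (log2 fold change 6.99) and the factor gene TEAD2 (log2 fold change 6.83) were higher, TEAD3 (log2 fold change -3.24) was lower, and YAP1 had 49.9 TPM in A549 and 47.8 TPM in RT4 and was not called (log2 fold change -0.32).

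Developmental regulators differed by cluster and pathway. Of 37 HOX genes tested, 10 were higher and 16 lower in A549. None of 11 HOXA genes was higher and 7 were lower (median log2 fold change -1.16), 5 of 9 HOXB genes were higher and 2 lower (1.13), 4 of 9 HOXC genes were higher and 1 lower (1.67), and 1 of 8 HOXD genes was higher and 6 were lower (-4.4). HOXB9 had 12.4 TPM in A549 and 0.304 TPM in RT4 (log2 fold change 4.99), HOXA11 0.305 TPM in A549 and 11.0 TPM in RT4 (log2 fold change -5.44) and HOXD9 0 TPM in A549 and 5.98 TPM in RT4 (at least 215-fold lower). Of 31 WNT, NOTCH and BMP genes, 9 were higher and 11 lower. The R-spondin receptor genes took opposite sides, with LGR4 higher (log2 fold change 3.83) and LGR5, at 0 TPM in all 3 A549 libraries, against 18.7, 10.6 and 15.7 TPM in RT4, at least 1366-fold lower. BMP4 was higher (log2 fold change 4.13) and BMP2 lower (log2 fold change -5.84). Of 25 retinoid and steroid receptor genes, 8 were higher and 11 lower. The glucocorticoid receptor gene NR3C1 had 79.9, 87.7 and 84.6 TPM in A549, against 0.965, 0.754 and 1.02 TPM in RT4 (log2 fold change 6.04, SE 0.26, adjusted p = 2.95e-15), and NR5A2 (log2 fold change 9.39) was higher too. The lower call of RXRB was lost with the added transcripts (log2 fold change -0.45, adjusted p = 0.0175).

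Of 14 cancer-testis genes tested, 8 were higher in A549 and 1 was lower, with the X-linked antigen gene XAGE1A at 173, 143 and 133 TPM in A549, against 0, 0 and 0.221 TPM in RT4 (1288-fold higher, CI 356 to 10638) and MAGEA6 at 14.8 TPM in A549 and 0.022 TPM in RT4 (1057-fold higher, CI 189 to 41786). The MAGEA genes are near-identical copies, so reads may be split between them. Among markers of other cell types, many of the defining ones were low and some members were high in 1 line. The T cell gene CD3E was at 0, the leukocyte gene PTPRC averaged 0.576 TPM in A549 and 0.296 TPM in RT4, and the endothelial gene PECAM1 0.195 TPM in A549 and 0.167 TPM in RT4. Of 9 haematopoietic genes tested, 4 were higher and 4 lower, LCP1, an actin-bundling protein of leukocytes that carcinomas also make, being the largest with 0.022, 0.093 and 0.014 TPM in A549, against 128, 175 and 148 TPM in RT4 (log2 fold change -12.00). Of 8 endothelial genes 2 were higher and 2 lower, and of 7 melanocyte genes 1 was higher and 1 lower (none lower without RT4 library 1). Of 7 neuroendocrine genes 4 were higher and none lower, led by the ubiquitin hydrolase gene UCHL1 with 1205, 1071 and 1103 TPM in A549, against 0.081, 0.348 and 0.492 TPM in RT4 (log2 fold change 11.70).

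Besides gene levels, the transcript that made up most of a gene's TPM was compared among 6366 genes with at least 10 TPM in both lines. A gene counted when every A549 library had 1 dominant transcript, every RT4 library another, and shares differed by at least 30 percentage points. Of the 6366 genes 49 (0.77%) met this. At the gene level 18 of the 49 were called and 31 were not, where 37.7% of all 17220 tested genes were called. This is near the share of all genes and does not set the 49 apart. In 38 both transcripts were protein coding, in 26 the annotated starts lay more than 1000 bases apart, and where both had a coding sequence (40 genes) it was the same in 10 and differed in 30. SLK, a kinase gene, had 25.1 TPM in A549 and 15.9 TPM in RT4 and was not called, but SLK-201 made up 91.1, 89.0 and 90.5% of its TPM in A549 and 15.9, 7.5 and 4.4% in RT4. The transcript SLK-202, with 3705 coding bases against 3612, took 3.6, 5.4 and 9.5% in A549 and 81.5, 85.5 and 85.6% in RT4. By these estimates SLK differed in its main transcript between the lines without a called difference in level. Estimates for overlapping transcripts are uncertain, and reads over single exons or junctions were not examined.

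CEACAM1, an adhesion gene, also differed in transcript. ENST00000161559 (1578 coding bases) had 76.5, 75.9 and 65.0% in A549 and 5.0, 5.7 and 4.6% in RT4, and ENST00000403444 (1392 coding bases) had 2.9, 7.1 and 14.6% in A549 and 82.0, 72.3 and 74.1% in RT4. MEST, an imprinted gene, differed in its start and not in its coding sequence. MEST-202 had 84.9, 81.4 and 87.2% in A549 and 0 in RT4, and MEST-204, which starts 5158 bases away, had 0 in A549 and 86.4, 70.5 and 60.4% in RT4. CD44 and CTNND1, whose exons are known targets of ESRP1, were looked up after values were seen. The CD44 transcript ENST00000415148, of 17 exons, had 0.2, 0 and 0.1% in A549 and 25.9, 34.1 and 31.2% in RT4, and ENST00000263398 of the same gene, of 9 exons, averaged 62.2% in A549 and 29.7% in RT4. The CTNND1 transcript ENST00000358694 had 32.2, 39.2 and 33.0% in A549 and 0, 0.3 and 0% in RT4. HSPA1A and BAG6 are among the 49 but sit where transcripts outside the primary assembly hold reads, and NOMO2 has near-identical copies, so their switches are uncertain.

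Genome position separated the lines in 1 further respect, noticed after values were seen. Over tested genes, chromosome 10 had the highest share of genes higher in A549 (33.5%, median log2 fold change 0.58), followed by chromosome 9 (29%, 0.49). Chromosome 19 had the highest share lower (32.6%, -0.59), followed by chromosome 22 (29.7%, -0.28). The zinc finger genes with a ZNF symbol, many of them repressors of the KRAB family, are clustered on chromosome 19. Of 240 tested there, 6 (2.5%) were higher in A549 and 157 (65.4%) were lower, with a median log2 fold change of -1.5. Of the other 930 protein-coding genes there, 151 were higher and 215 (23.1%) lower (median -0.35), and of the ZNF genes on other chromosomes 29 were higher and 45 (18.1%) lower (median -0.21). The ZNF genes of chromosome 19 had a median level of 1.98 TPM in A549 and 5.5 TPM in RT4. RT4 ranked first of the 9 lines for 129 and A549 last for 71, with a median place of 7 for A549 and 1 for RT4.

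The share was highest between 50 and 55 Mb, where 33 of 39 ZNF genes (84.6%) were lower and none was higher (median log2 fold change -3.69), and in the first 20 Mb, where 42 of 54 (77.8%) were lower and none was higher. ZNF415 had 0 TPM in A549 and 18.0 TPM in RT4 and ZNF93 had 0 TPM in A549 and 14.4 TPM in RT4. ZNF816 (0.114 TPM in A549 and 34.9 TPM in RT4, log2 fold change -8.92), ZNF468 (0.834 TPM in A549 and 51.0 TPM in RT4, log2 fold change -7.16) and ZNF528 (0.447 TPM in A549 and 35.1 TPM in RT4, log2 fold change -6.70) were lower. ZNF507 was 1 of the 6 higher (17.1 TPM in A549 and 4.29 TPM in RT4, log2 fold change 1.57). Many of these genes are close copies of their neighbours, so single values are uncertain where reads are split, and the count of lower members ran between 118 and 160 over the settings tried.

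**Figure D5:**
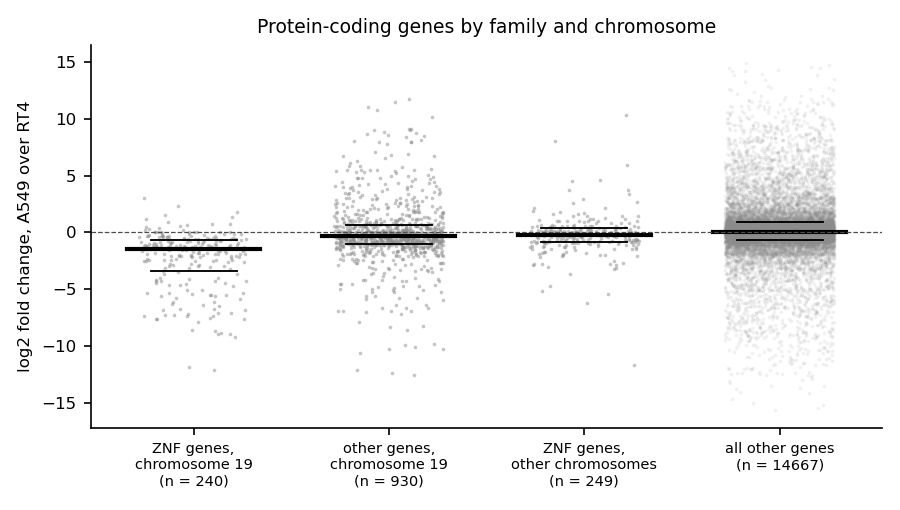
Log2 fold change of A549 over RT4 for tested protein-coding genes, 1 point per gene, with the median (thick line) and quartiles (thin lines) of each set. The 240 ZNF genes of chromosome 19 have a median of -1.5 and few points above 0, whereas the other sets lie around 0.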

How the data were processed

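Poly-A messenger RNA of A549 and RT4 was compared within a series of 9 lines with 3 libraries each. Tools credited in the submitters' processing notes are CASAVA 1.8 and kallisto 0.43.1, with build GRCh 38; the transcript annotation release is not given in the sources used here. Per the file headers, the authors deposited an estimated count per transcript, in which a read can be split between transcripts. Per the file headers the tables also hold a TPM for each transcript, scaled to effective length and library total.

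Of 176241 transcripts, 159887 matched GENCODE 29 by identifier and were summed to 34584 genes, counts being rounded. Of the 16354 others, 13402 carry a gene symbol and enter only 1 alternative, which was added after values had been looked at. Counts of 27 libraries were fitted with edgeR 4.0.16 in R 4.3.3 (TMM factors, filterByExpr, robust quasi-likelihood fit, 1 coefficient per line), a fit that was tested on simulated data; the biological coefficient of variation was 24.2%. All lines enter because 3 libraries give little information on the spread. Calls ask for a Benjamini-Hochberg adjusted p under 0.05 over all tested genes and a change of 2-fold or more; the SE is the fold change over the root of F. Libraries of a line differed by more than sampling noise (chi-square ratio 5.955 to 25.15), so none was merged. A fold against a line at 0 is a bound against 3 counts over its libraries and covers counting error only.

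The members and the 39 gene lists were chosen with earlier results of these data known. Genes were named by rule. The rule took the 12 largest changes per direction at 50 TPM or more, among called genes without overlap between lines. It also took up to 3 members per list and direction at 5 TPM or more and all members of 7 short lists. The 12 largest transcript switches and the 10 most abundant genes per line complete it. Others were named after their values were seen: ACLY, AGR2, AKR1C1, ALDH2, ALDH3B1, APOH, B2M, BAG6, BST2, C5, CD44, CDH1, CDH2, CEACAM6, CLDN4, COL3A1, CTNND1, CYP24A1, EPCAM, FASN, FN1, FTH1, GATA3, GCLC, GCLM, GCNT3, GPX2, GSR, GSTM3, HLA-B, HLA-C, HLA-E, IDH1, IFIT3, IL1B, IRF9, ISG15, ITGB1, KRT20, KRT8, LAMP3, ME1, MX1, NFKBIA, NLRC5, NQO1, NR0B1, NR3C1, PDGFRB, PECAM1, PGD, PSMB8, PSMB9, PTPRC, S100A2, S100P, SC5D, SERPIND1, SFTPB, SPDEF, TAP1, TAP2, TFF1, TKT, TXNRD1, UGDH, UPK1B, UPK2, VTN, YAP1, ZEB1, ZNF415, ZNF468, ZNF507, ZNF528, ZNF816 and ZNF93. Alternatives were other size factors, DESeq2 1.42.0, no filter, other library or gene sets, a length offset, glmTreat, a block on the P number of the titles and each library left out. The parallel proteomics was not analysed here. Some genes that the rule picks are not reported here.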

Additional observations from a re-analysis of the deposited data

Results flagged for a closer look

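Transcripts with no GENCODE 29 match held reads that the gene comparison leaves out. They took 2.167 to 2.427% of the estimated counts in the A549 libraries and 2.724 to 2.85% in the RT4 libraries. With those that carry a symbol added to their genes, 502 genes gained at least 5% of their TPM, 124 of them on chromosome 6. Of 470 tested both ways, 79 changed call, and 5 changed from a call in one direction to a call in the other: ABR, NFKBIL1, NSFP1, PRRC2A and TCF19.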

How the results depend on the processing

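The counts of called genes, 3419 higher and 3077 lower in A549, stayed within 1.5 times of themselves in all alternatives run. Higher genes numbered 2474 (glmTreat against 2-fold) to 3492 (no filter) and lower genes 2175 (glmTreat) to 3275 (without HepG2). DESeq2 gave 3259 and 3071, and the 6 libraries fitted alone gave 3032 and 2956. Leaving out 1 library gave 3271 to 3439 higher and 2967 to 3056 lower. Between 71.6% (glmTreat) and 99.2% (transcripts outside the primary assembly added) of the 6496 calls were kept in the same direction, and calls turned round in the last of these alone, for 5 genes. With the P number of the titles as a replicate block, 3175 genes were higher and 2888 lower. Libraries that share a P number correlated by 0.074 and 0.059 in their deviations from the line means, so the number is not taken to pair them.

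Genes with a different dominant transcript numbered 49, but 27 at a minimum of 20 TPM, 82 at a share difference of 20 points and 15 at 50 points, and 47 to 62 with 1 library left out. The share of NRF2 target promoters with the motif was 14.8% in the last 150 bases before the start, against 33.3% in the whole window. Under glmTreat 21 of the 78 list counts moved by over 1.5 times, among them those that follow. Lower members were 8 and not 16 for sterol and fatty acid synthesis, 4 and not 7 for integrins and 3 and not 5 for MAPK output. They were 2 and not 5 for amino acid and ATF4 genes and 2 and not 4 for SWI/SNF, LKB1 and TSC genes. They were 1 and not 3 for the cell cycle and 0 and not 3 for NRF2 targets. Higher members were 5 and not 8 for inflammatory, 4 and not 7 for both Hippo and hypoxia and 3 and not 5 for kidney. They were 2 and not 4 for both p53 target and fibroblast genes. For NRF2 regulators 1 and not 2 were left in each direction. The count of lower ZNF genes on chromosome 19 was 149 to 160 with 1 library left out, and 118 under glmTreat.

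Of 363 tested genes picked by the rule or after their values were seen, 276 were called. In at least 1 alternative that kept the sign of the fold change, 33 of these lost the call and 14 genes not called in the main setting gained one. The fold change of 5 took the other sign in an alternative. Not in the counts of 33 and 14 are ACACA, which lost its call, and HLA-C, which gained one, only with that change of sign. The 5 changed sign with the transcripts outside the primary assembly added, 4 of them then without a call: the log2 fold change was then -0.39 for HSPA1A, 0.94 for IER3, 0.64 for ACACA, -0.37 for BAG6 and -3.22 for HLA-C. The added transcripts are the only change in that alternative. Depth limits genes under 1 TPM in both lines, of which 3759 were tested.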
